A study of Mus musculus with 42 samples.

Results

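The aorta of diabetic mice given the yangyinyiqi part of the SHENQI compound was compared with the aorta of untreated mice of the same disease model, over all genes of the array. The comparison rests on 6 arrays, 3 of the yangyinyiqi group and 3 of the macroangiopathy group, of 42 in the series, and the arrays were chosen by their labels alone. All these mice were male KK/Ay mice, an obese strain with spontaneous type 2 diabetes, and all were fed high-fat chow and given L-NAME, which blocks nitric oxide synthase. The macroangiopathy group was gavaged with saline and the yangyinyiqi group with a decoction of ginseng, Astragalus, rehmannia, trichosanthes, hawthorn and Huai yam. Aortas were collected from 3 animals drawn at random per group, and each group has 3 aorta arrays. The question was which genes of the vessel differed when this part of the formula was given on top of the model.

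The aorta is a wall of smooth muscle lined by endothelium and wrapped in fat, and its genes respond to hormones carried in the blood. Glucocorticoids, the stress and fasting steroids of the adrenal gland, cross the cell membrane, bind the glucocorticoid receptor and drive a small set of genes in nearly every tissue. Fkbp5 (a co-chaperone that lowers the affinity of the receptor), Tsc22d3 (GILZ, an anti-inflammatory leucine zipper protein), Sgk1 (a kinase that keeps ion channels at the membrane) and Per1 (a repressor of the circadian clock) are among the best known of them. The same hormone follows a daily rhythm, so these genes are also read together with clock genes.

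On each of the 6 arrays 72.72% to 76.61% of the named probes exceeded background clearly by the scanner software's own flag. Smooth muscle genes were measured on every array: Myh11, the smooth muscle myosin heavy chain, lay between 14.82 and 15.39 log2 intensity in the macroangiopathy group and between 14.93 and 15.43 in the yangyinyiqi group. Fat was part of every sample too, since the brown fat gene Ucp1 lay between 15.99 and 16.91 in the macroangiopathy group and between 16.53 and 16.81 in the yangyinyiqi group. The arrays of a group differed from each other in tissue of other kinds. The 21 B and T lymphocyte markers had a mean of 9.65 on the array yangyinyiqi 2 and 8.65 on macroangiopathy 3, against 6.64 to 6.85 on the other 4 arrays. The 15 cardiac markers had a mean of 10.51 on macroangiopathy 1 and 9.04 on macroangiopathy 2, against 6.93 to 8.43 on the remaining arrays. The 15 nerve markers were highest on macroangiopathy 2, at 10.11, and lowest on yangyinyiqi 3, at 8.10, which also had the highest mesothelial markers, at 7.95 against 6.73 to 6.96 elsewhere. A principal component analysis of the 6 arrays put 50.33% of the variance on a first axis, on which yangyinyiqi 2 and macroangiopathy 3 stood on 1 side and the other 4 arrays on the other. In such bulk tissue, fewer cells of a type and less RNA per cell cannot be told apart. The slides add a further limit: all 3 macroangiopathy arrays and yangyinyiqi 1 were on 1 slide, and yangyinyiqi 2 and 3 on another, so the difference within a slide is that of yangyinyiqi 1 alone.

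**Figure D1:**
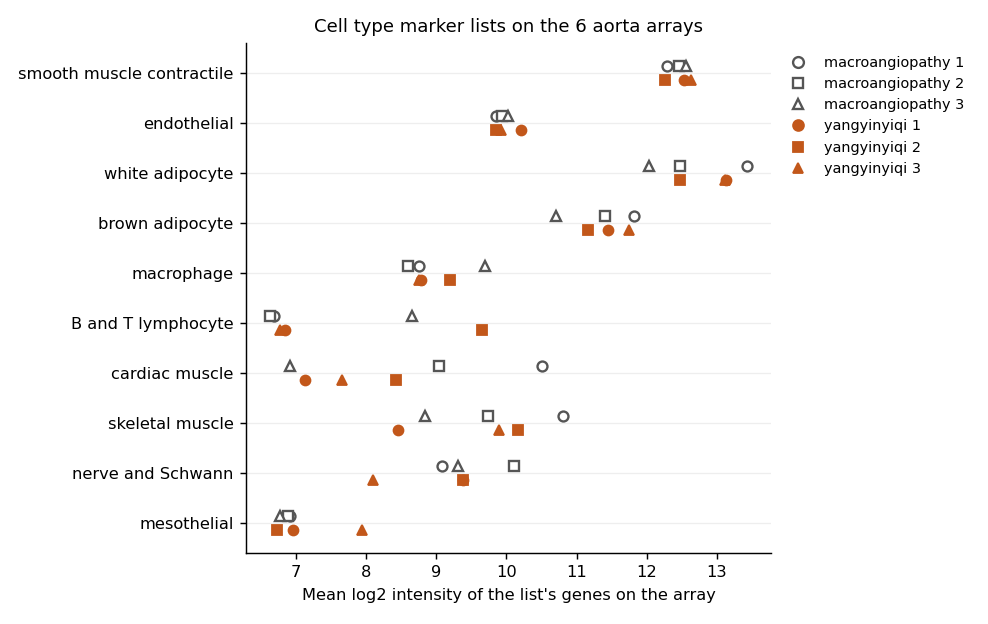
Mean log2 intensity (x axis) of 10 lists of cell type markers (y axis) on each of the 6 aorta arrays. Open grey symbols are the macroangiopathy arrays and filled orange symbols the yangyinyiqi arrays, with 1 symbol shape per replicate number; lymphocyte markers stand apart on macroangiopathy 3 and yangyinyiqi 2, and cardiac markers on macroangiopathy 1 and 2.

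Across 15817 genes tested, no gene passed an adjusted P value of 0.05 in limma with Benjamini-Hochberg adjustment, and the smallest adjusted P value was 0.9999. At the study's threshold, an unadjusted P value below 0.05, 220 genes (1.39%) were called, 144 higher (0.91%) and 76 lower (0.48%) with yangyinyiqi. If no gene changed, 5% would be expected to pass, so the share called was below that level. The balance of directions rested on single arrays: 116 genes were higher and 166 lower without macroangiopathy 3, 276 higher and 305 lower without macroangiopathy 1, and 59 higher and 31 lower without macroangiopathy 2. The 6 arrays did not overlap between the groups in 929 genes (5.87%), 605 of them higher (3.82%) and 324 lower (2.05%). The median log2 fold change over all genes was 0.01, and it was above 0 in 54% of genes. Every gene described below is therefore one that was higher or lower at an unadjusted P value only, unless an adjusted value is named.

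The 37 lists of pathway genes and cell markers were chosen with earlier results of these data known, so counts in them are descriptive only. Of the 37, 25 held no called gene, 10 held 1, heparan sulfate and proteoglycan genes held 2, and the glucocorticoid-responsive list held 3. Of the 18 genes of that list 17 were on the array, all 17 were tested, and 15 had a positive log2 fold change, with a median of 0.33 against 0.01 over all genes. Called higher were 3 of 17, against 0.91% of all genes, and none was called lower. In 4 of 17 the yangyinyiqi arrays all lay above the macroangiopathy arrays, against 3.82% of all genes.

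Fkbp5 read 6.64, 6.72 and 6.63 log2 intensity on macroangiopathy arrays 1 to 3, and 7.17, 7.16 and 7.05 on the yangyinyiqi arrays. The groups were well apart and each was narrow, and the difference was 0.46 ± 0.09 (log2, SE, n = 3 per group), or 1.38-fold higher, at an unadjusted limma P value of 0.0023. All 3 of its probes, at chr17:28536878-28536937, chr17:28537593-28537652 and chr17:28574995-28575054 on the minus strand of mm9, were higher, by 0.34, 0.42 and 0.63.

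Tsc22d3 read 10.13, 10.08 and 9.76 in the macroangiopathy group and 10.60, 10.69 and 10.33 in the yangyinyiqi group. The lowest treated array lay above the highest untreated one, and the difference was 0.55 ± 0.15 at an unadjusted limma P value of 0.010. Sgk1 read 7.92, 7.62 and 8.09 in the macroangiopathy group and 8.74, 8.30 and 8.23 in the yangyinyiqi group. These groups were also apart, if less widely, with a difference of 0.55 ± 0.19 and an unadjusted limma P value of 0.025. One of the 2 Sgk1 probes was well above background on none of the 6 arrays, and the other differed by 0.64.

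Per1 did not pass: it read 9.41, 9.27 and 8.85 in the macroangiopathy group and 10.001, 9.27 and 9.81 in the yangyinyiqi group, a difference of 0.52 ± 0.24 with an unadjusted limma P value of 0.070. Its array yangyinyiqi 2 lay among the untreated arrays while the other treated arrays were above all of them. Hif3a, a hypoxia-inducible factor subunit, was the only list member apart between the groups without being called, at 0.23 ± 0.10 and an unadjusted limma P value of 0.052, and it is named here after its values were seen. Mt2, a metal-binding metallothionein, differed by 0.57 ± 0.26 and Ddit4, an inhibitor of mTOR complex signalling, by 0.49 ± 0.23, both with overlapping groups. Only Lcn2, at -0.12, and Angptl4, at -0.30, had values below 0 in this list.

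The lean of the list towards higher values did not rest on a single array. Leaving arrays out reuses the data with which the list was chosen, so it is not separate support. With each of the 6 arrays left out in turn, 14 or 15 of the 17 genes stayed above 0 and the median lay between 0.28 and 0.45. The calls were less steady, with 2 without macroangiopathy 1, 2 without yangyinyiqi 1 and 8 without yangyinyiqi 2. Over all genes the counts in these settings were 581, 217 and 481, beside 220 in the main fit. With the arrays highest in lymphocyte markers left out (yangyinyiqi 2 and macroangiopathy 3), the median was 0.38 and 5 genes were called, against 2.76% of all genes. With the lymphocyte level as a covariate 2.64% of all genes were called. On the shared slide, yangyinyiqi 1 exceeded the macroangiopathy mean by 0.51 for Fkbp5, 0.61 for Tsc22d3, 0.86 for Sgk1 and 0.82 for Per1. For all of these but Per1, the lack of overlap between the groups fixed the direction beforehand. These values come from 1 treated array and do not settle the calls: with slide as a fixed block over 21 aorta arrays the unadjusted limma P value was 0.36 for Fkbp5 and 0.33 for Tsc22d3, both lost, and 0.0062 for Sgk1.

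**Figure D2:**
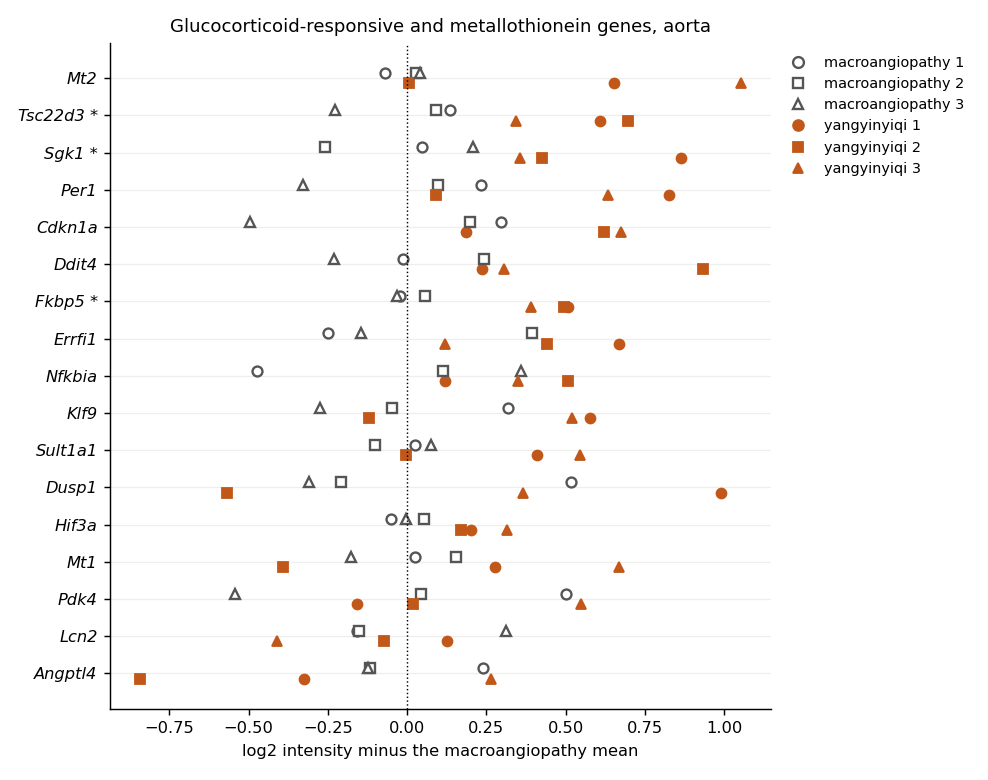
Log2 intensity of each array minus the mean of the 3 macroangiopathy arrays (x axis) for the 17 glucocorticoid-responsive and metallothionein genes tested (y axis, ordered by the log2 fold change). Open grey symbols are macroangiopathy and filled orange symbols yangyinyiqi; an asterisk marks Fkbp5, Tsc22d3 and Sgk1, which passed the unadjusted threshold.

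The start regions of some of these genes are shown because they hold letters that glucocorticoid receptor and clock factors can recognise. The receptor binds as a pair to an inverted repeat, searched here as GNACA and TGTNC parted by any 3 bases (N is any base), and clock activators bind the E-box CACGTG; both read the same on either strand, and the searched motifs do not overlap in the printed runs. In the 250 bases before each start in RefSeq (GRCm38.p6), the first occurred in 0.387% and the second in 6.02% of 32851 windows. Of the glucocorticoid list, 16 genes matched, with 26 starts, of which 2 held the first motif (1 start each of Sgk1 and Mt1) and 4 held the second (1 start each of Fkbp5, Per1, Sgk1 and Dusp1). Fam107a, a stress-induced actin-binding protein described below, is not in that list and held the first in 2 of its 3 starts. It is shown as an example, and the motif was not counted in the other called genes outside the list. Each line gives the 250 bases before 1 start, in the direction of the gene, with the named motif in capitals. Sgk1, at chr10:21993640-21993889 on the plus strand, and Fam107a, at chr14:8309778-8310027 on the minus strand, show the receptor motif. Fkbp5, at chr17:28486150-28486399 on the minus strand, and Per1, at chr11:69098699-69098948 on the plus strand, show CACGTG.
Sgk1: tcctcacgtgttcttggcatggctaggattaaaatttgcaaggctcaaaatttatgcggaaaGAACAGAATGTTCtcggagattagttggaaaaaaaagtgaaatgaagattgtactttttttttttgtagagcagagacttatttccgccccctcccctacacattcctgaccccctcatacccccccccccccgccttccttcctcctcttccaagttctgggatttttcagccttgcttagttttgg
Fam107a: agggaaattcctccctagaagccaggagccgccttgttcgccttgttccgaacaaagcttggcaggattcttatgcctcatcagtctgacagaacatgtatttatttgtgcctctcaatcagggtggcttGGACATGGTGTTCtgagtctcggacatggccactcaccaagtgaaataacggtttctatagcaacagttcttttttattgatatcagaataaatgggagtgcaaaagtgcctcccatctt
Fkbp5: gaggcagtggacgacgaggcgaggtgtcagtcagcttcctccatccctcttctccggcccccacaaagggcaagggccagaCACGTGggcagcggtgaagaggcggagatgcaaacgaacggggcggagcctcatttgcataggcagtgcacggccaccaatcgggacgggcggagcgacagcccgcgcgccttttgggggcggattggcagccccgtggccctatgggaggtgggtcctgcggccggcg
Per1: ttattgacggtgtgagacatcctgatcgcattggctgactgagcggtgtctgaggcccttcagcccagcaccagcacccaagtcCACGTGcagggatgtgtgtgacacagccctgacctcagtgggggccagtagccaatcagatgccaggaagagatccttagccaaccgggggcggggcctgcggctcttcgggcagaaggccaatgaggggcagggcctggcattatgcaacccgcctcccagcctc
The motif began 188 bases before the start in Sgk1, 120 in Fam107a, 169 in Fkbp5 and 166 in Per1. These matches describe the letters only, and binding was not measured. The arrays do not tell which of the 6 starts of Sgk1 was used.

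The circadian clock runs on activators (Clock, Arntl) that drive repressors (Per, Cry) and output factors (Dbp, Nr1d1), and Per1 and Per2 respond to glucocorticoids as well. Of 13 output and repressor genes, 11 were above 0, against 54% of all genes, with a median of 0.16. Called higher was 1 of them, against 0.91% of all genes. That gene was Per2, a repressor that acts with Per1, which read 7.88, 7.76 and 7.83 in the macroangiopathy group and 8.22, 7.93 and 8.50 in the yangyinyiqi group. Its difference was 0.39 ± 0.16 at an unadjusted limma P value of 0.046, and this call was lost in 14 of 26 alternative analyses. Dbp, a transcription factor at the output of the clock, differed by 0.53 ± 0.32 and Nr1d1, the REV-ERB alpha repressor of Arntl, by 0.34 ± 0.16, both with overlapping groups. Cry1, at -0.09, and Per3, at -0.13, lay below 0. The activators Arntl, at -0.16 ± 0.32, and Clock, at 0.03 ± 0.10, were not called, nor was any other of the 6 activator-arm genes tested. The median of the output list ranged from 0.04 to 0.32 when single arrays were left out, and 7 to 12 of its 13 genes were then above 0. The array macroangiopathy 2 alone held the lowest summed intensity of the list, at 14990 against 27640 and 27730 on the other untreated arrays and 24640 to 36540 with yangyinyiqi. Such a sum weighs bright genes like Dbp most. By mean log2 level the arrays read 8.65, 8.19 and 8.35 without and 8.705, 8.29 and 8.77 with yangyinyiqi. On that measure yangyinyiqi 2 lay below macroangiopathy 1 and 3.

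The largest of the higher genes, taken from those called, measured on all 6 arrays and without overlap, included several that fat cells use. Cyp2e1, a cytochrome P450 that oxidises ethanol and ketone bodies, read 8.45, 7.29 and 7.89 in the macroangiopathy group and 10.42, 8.70 and 9.16 with yangyinyiqi. Its difference was 1.55 ± 0.50, or 2.93-fold, at an unadjusted limma P value of 0.019. The spread within each group was wide, and yangyinyiqi 1 alone exceeded the untreated mean by 2.54. Slc7a10, a neutral amino acid transporter of white fat cells, read 7.23, 7.18 and 7.42 against 8.95, 7.89 and 8.23, a difference of 1.08 ± 0.27 at an unadjusted limma P value of 0.0066. Scd1, the desaturase that makes monounsaturated fatty acids, read 11.62, 11.30 and 10.60 against 11.99, 11.995 and 12.99, a difference of 1.15 ± 0.37. Its untreated and treated arrays came within 0.38 of each other (11.62 and 11.99). The fatty acid receptors Ffar4, for long chains, and Ffar2, for short chains, were 0.64 ± 0.15 and 0.61 ± 0.16 higher. Ehhadh, a peroxisomal enzyme of fatty acid oxidation, was 0.60 ± 0.22 higher, a call lost in 12 of 26 alternative analyses.

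White fat markers leaned the same way as these genes without being called. Of the 15 markers, 14 were above 0, with a median of 0.23, none was called, and the groups overlapped, with summed intensities of 173600 to 383600 in the macroangiopathy group and 227500 to 348500 in the yangyinyiqi group. All 15 were above background on all 6 arrays, and Adipoq, the fat cell hormone adiponectin, read 13.65 to 15.14 without and 14.13 to 15.08 with yangyinyiqi. The median of the list was -0.02 without macroangiopathy 3 and 0.62, with 5 genes called, without macroangiopathy 1. Over all genes, leaving out macroangiopathy 1 raised the count of calls from 220 to 581. The part of fat content in the higher readings of Slc7a10, Scd1 and Cyp2e1 was not tested. Of the 22 tested genes of fatty acid oxidation 1 (Ehhadh) and of the 20 of fatty acid and triglyceride synthesis 1 (Scd1) was called. Over all genes 0.91% were called higher. The medians of these lists were 0.08 and 0.04.

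The other large differences upwards were in genes of connective tissue and detoxification. Mmp3, the matrix protease stromelysin-1, read 7.04, 7.34 and 6.99 in the macroangiopathy group and 7.89, 8.30 and 7.87 in the yangyinyiqi group. The groups were far apart for their spread, with a difference of 0.90 ± 0.17 at an unadjusted limma P value of 0.0014. Mmp3 was the only 1 of 15 matrix metalloproteinases and inhibitors to be called, against 1.39% of all genes. Sfrp4, a secreted inhibitor of Wnt signalling, read 9.83, 10.11 and 9.93 against 10.86, 10.75 and 10.39, a difference of 0.71 ± 0.16. Cxcl14, a chemokine of resident tissue cells, differed by 0.56 ± 0.16. Cyp2b13, a cytochrome P450, differed by 0.61 ± 0.24, a call lost in 13 of 26 alternative analyses, and 1 of its 2 probes was above background on only 1 array. Fam107a read 8.24, 8.18 and 8.13 without and 9.16, 8.39 and 8.83 with yangyinyiqi, a difference of 0.61 ± 0.20.

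**Figure D3:**
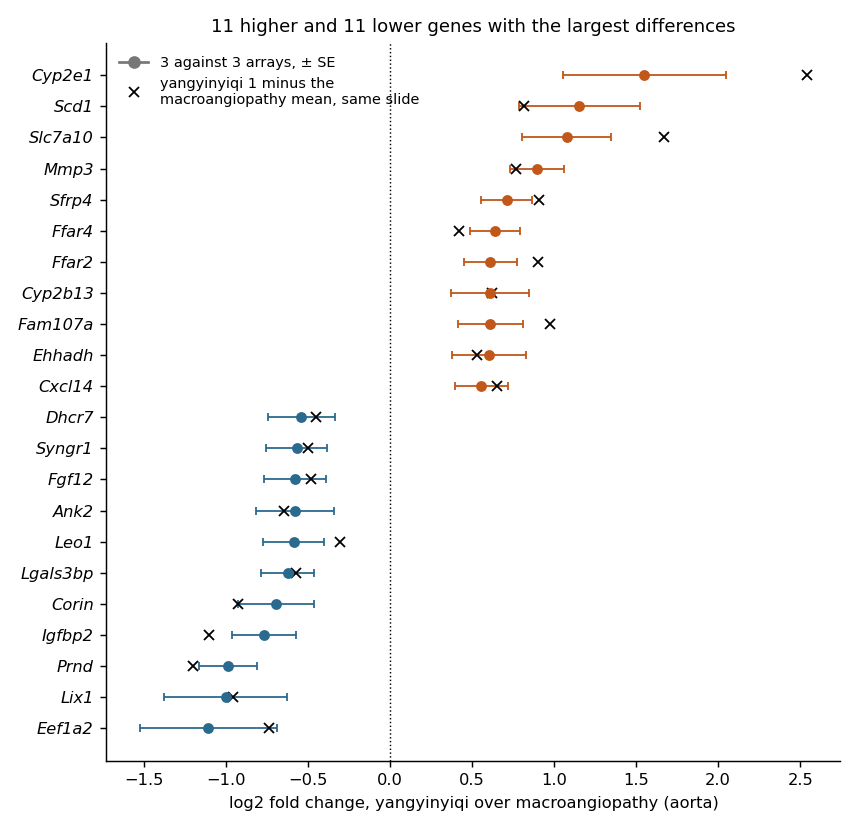
Log2 fold change of yangyinyiqi over macroangiopathy in aorta (x axis) for 11 higher and 11 lower genes with the largest differences among called genes that were measured above background on all 6 arrays and did not overlap. Circles with bars are the fit on 6 arrays ± SE. Crosses are yangyinyiqi 1 minus the macroangiopathy mean, which share a slide, and run from -1.20 for Prnd to 2.54 for Cyp2e1. The rule of no overlap fixed the side of 0 on which each cross lies, so only its size is informative.

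Among the lower genes, Prnd stood apart from its replicates most clearly. Prnd encodes doppel, a relative of the prion protein that is anchored to the cell surface and is found in testis and in growing vessels. It read 8.28, 7.95 and 7.80 in the macroangiopathy group and 6.81, 7.26 and 7.00 in the yangyinyiqi group, with more than 0.5 between the nearest arrays. The difference was -0.99 ± 0.18, a fold change of 0.504, at an unadjusted limma P value of 0.0012, from 1 probe at chr2:131781755-131781814 (mm9, plus strand). Of the 34 called genes named, it was the only 1 that passed the threshold in all 26 alternative analyses, with a log2 fold change between -1.43 and -0.73. Igfbp2, a binding protein of insulin-like growth factors, read 8.07, 8.33 and 7.85 against 6.98, 7.42 and 7.55, a difference of -0.77 ± 0.20. Leo1, a subunit of the Paf1 complex that travels with RNA polymerase, read 7.47, 7.27 and 6.98 against 6.94, 6.46 and 6.57, a difference of -0.59 ± 0.18. Lgals3bp, a secreted galectin-binding glycoprotein, read 12.28, 12.74 and 12.64 against 11.98, 12.07 and 11.74, a difference of -0.62 ± 0.16.

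Several other lower genes are used by heart muscle or nerve. Corin, the protease that activates the atrial natriuretic peptide, read 7.04, 6.74 and 6.25 in the macroangiopathy group and 5.75, 5.96 and 6.24 in the yangyinyiqi group. It was highest on macroangiopathy 1, the array highest in cardiac markers, and the nearest arrays of the groups were 6.25 and 6.24. The 14 cardiac markers tested were all below 0, with a median of -1.19 and none called, and their mean on macroangiopathy 3 lay below that on each treated array. Their summed intensity was 33530 to 69470 in the macroangiopathy group and 23550 to 37320 in the yangyinyiqi group. The median was -0.38 without macroangiopathy 1 and -2.20 without macroangiopathy 3. In the latter setting 10 cardiac genes were called, beside 282 over all genes. Eef1a2, an elongation factor of muscle and neurons, differed by -1.11 ± 0.42, Ank2, an ankyrin that anchors membrane channels, by -0.58 ± 0.24 (lost in 13 of 26 alternative analyses), Fgf12, a regulator of sodium channels, by -0.58 ± 0.19, and Syngr1, a synaptic vesicle protein, by -0.57 ± 0.18. Lix1, at -0.9998 ± 0.37, read 8.91 on macroangiopathy 2 against 7.53 and 7.80 on the other untreated arrays. Nerve markers, 3 of 15 above 0, summed to 29630 to 72970 in the macroangiopathy group and 22720 to 33790 in the yangyinyiqi group, and their median of -0.27 was -0.06 without macroangiopathy 2. By mean log2 level the groups overlapped, at 9.09, 10.11 and 9.31 without and 9.39, 9.38 and 8.10 with yangyinyiqi. Skeletal muscle markers, 1 of 15 above 0, had a median of -0.25, which was 0.21 without macroangiopathy 1. Their mean level was 10.81, 9.75 and 8.84 on the macroangiopathy arrays and 8.45, 10.16 and 9.895 on the yangyinyiqi arrays. Eef1a2 had a mean of 12.40 in skeletal muscle of the macroangiopathy group, against 8.54 in its aorta. The part of cardiac, skeletal muscle and nervous tissue in these lower readings was not tested.

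Cholesterol synthesis was the most one-sided of the metabolic lists. Of 23 tested genes of the pathway and the LDL receptor, none was above 0, the median was -0.30, and 1 was called lower, against 0.48% of all genes. That gene was Dhcr7, which performs the last step of the synthesis, and which read 8.46, 9.19 and 8.67 in the macroangiopathy group and 8.32, 8.31 and 8.07 in the yangyinyiqi group, a difference of -0.54 ± 0.20 that passed in 13 of 26 alternative analyses. In 4 genes, Dhcr7, Idi1, Lss and Cyp51, the arrays did not overlap, against 2.05% of all genes. Macroangiopathy 2, the array highest in nerve markers, was the highest of the 6 in summed intensity of the pathway, at 16120 against 9448 and 10780 on the other untreated arrays and 7568 to 9977 with yangyinyiqi. Without it the median was -0.12, with 1 gene above 0 and none called. With each other array left out in turn the median lay between -0.44 and -0.28. Without macroangiopathy 1, 9 genes of the pathway were called, while the count over all genes was 581 instead of 220.

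Interferon-response genes, which cells switch on against viruses, also leaned low. Of 24 tested, 5 were above 0, against 54% of all genes, with a median of -0.18. Called lower was 1 of them, against 0.48% of all genes. Oas2, a sensor that starts the degradation of RNA, was the 1 called gene, though 1 of its 2 probes was above background on none of the 6 arrays, and read 6.25, 6.38 and 6.33 in the macroangiopathy group and 5.99, 5.86 and 5.78 in the yangyinyiqi group. The groups were narrow and apart, with a difference of -0.45 ± 0.10 at an unadjusted limma P value of 0.0045. Oasl2, an interferon-induced relative of Oas2, was -0.65 ± 0.27 with an unadjusted limma P value of 0.055. The median stayed below 0 with each array left out, from -0.26 to -0.07. In these settings 1 to 4 interferon genes were called, beside 90 to 581 over all genes. Of 22 macrophage genes 19 lay below 0, with a median of -0.11, and none was called. All 18 lymphocyte genes tested lay above 0, with a median of 0.42, and none was called. Both leans rested on single arrays. Without macroangiopathy 3, 17 macrophage genes were above 0, and without yangyinyiqi 2, 0 lymphocyte genes were. The part of these cells in the interferon readings was not tested.

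Calls among genes of the vessel wall were rare, as they were over all genes (1.39%), and the counts moved with the arrays used. At that share, a list of 10 to 24 genes without a call says little about the wall. Of 20 contractile genes of smooth muscle 13 were above 0, with a median of 0.03, and only Rgs5, a brake on G protein signalling in pericytes and smooth muscle, was called, at 0.67 ± 0.24 with overlapping arrays. Without the arrays highest in lymphocyte markers the smooth muscle median was 0.20 and 4 genes were called, against 2.76% of all genes. Of 20 endothelial genes 14 were above 0, with a median of 0.10 and none called. Without yangyinyiqi 2, 4 of them were called, beside 481 over all genes. Nos3, the endothelial nitric oxide synthase that L-NAME inhibits, differed by 0.43 ± 0.30 with overlapping groups, and none of the 15 genes of nitric oxide and endothelin tested was called. None of 17 leukocyte adhesion genes, 10 renin-angiotensin genes, 21 collagen chains, 18 elastic fibre genes or 17 genes of the TGF-beta pathway was called. Of the elastic fibre genes 5 were above 0, and this number was 1 without yangyinyiqi 3 and 15 without yangyinyiqi 2. Among 24 heparan sulfate and proteoglycan genes, Sdc3, a syndecan that carries heparan sulfate, was -0.33 ± 0.11 and Aspn, the small matrix proteoglycan asporin, was 0.32 ± 0.12. Single called genes in other lists were Cfi, the complement protease factor I, at 0.44 ± 0.14, and Klf4, a transcription factor of stressed smooth muscle and endothelium, at 0.37 ± 0.15. Cfi was above background on all 3 yangyinyiqi arrays but on 2 of the macroangiopathy arrays, so it entered the test through the group where it was higher. The call of Klf4 was lost in 18 of 26 alternative analyses. None of 23 genes of insulin signalling and glucose transport was called, and their median was 0.06.

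Skeletal muscle arrays of the same 2 groups give a second reading of these genes that the aorta arrays did not enter. The labels do not say whether aorta and muscle came from the same animals. The same unadjusted threshold was passed in muscle by 528 of 13810 genes (3.82%), and none passed after adjustment. Of the 34 called genes named in aorta, 28 were tested in muscle, and 20 of these 28 had the same direction there. Called in muscle were 7 of the 28, all 7 in the direction of the aorta. Over all 220 called aorta genes, 174 were tested in muscle, 114 (65.52%) had the same direction, and 17 (9.77%) were called, 13 of them in the same direction. The share with the same direction over all genes tested in both tissues was not computed. Whether 20 of 28 is more than usual therefore cannot be told.

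The 7 genes were Fkbp5, Tsc22d3, Per2, Fam107a and Cyp2e1 among the higher and Prnd and Leo1 among the lower. Fkbp5 read 6.67, 6.97 and 7.17 in muscle of the macroangiopathy group and 7.73, 7.20 and 7.39 in muscle of the yangyinyiqi group. The groups nearly touched, and the difference was 0.50 ± 0.16 at an unadjusted limma P value of 0.016. Tsc22d3 read 11.73, 11.76 and 12.02 against 12.06, 12.27 and 12.30, a difference of 0.37 ± 0.11. Prnd read 7.00, 7.35 and 6.96 against 6.62, 6.66 and 6.44, a difference of -0.53 ± 0.12 at an unadjusted limma P value of 0.0023, with no overlap. Leo1 read 7.35, 7.42 and 8.31 against 6.75, 6.75 and 6.33, a difference of -1.08 ± 0.25. Fam107a differed by 0.59 ± 0.18, Cyp2e1 by 0.99 ± 0.28 and Per2 by 0.27 ± 0.11. Sgk1, by contrast, was 0.03 ± 0.09 in muscle, and the difference between the tissues had an unadjusted limma P value of 0.036 and an adjusted P value of 1. Per1 was 0.27 ± 0.22 there and was not called, and over the whole glucocorticoid list the muscle median was 0.12.

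In muscle too the slides were uneven, since all 3 yangyinyiqi arrays shared a slide with only macroangiopathy 3. On that slide the difference was 0.27 for Fkbp5, 0.18 for Tsc22d3 and 0.04 for Per2. It was 0.94 for Fam107a, 1.16 for Cyp2e1, -0.38 for Prnd and -1.70 for Leo1. Each kept its direction, but except for Per2 the groups did not overlap in muscle, so it could not have turned. A test of the difference between the tissues over 16110 genes called none after adjustment and 298 (1.85%) at an unadjusted P value below 0.05. Of the 28 genes, Mmp3 had the largest positive aorta value among those with a muscle value below 0, at -0.07 ± 0.13, and its difference between the tissues had an unadjusted limma P value of 0.0012.

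**Figure D4:**
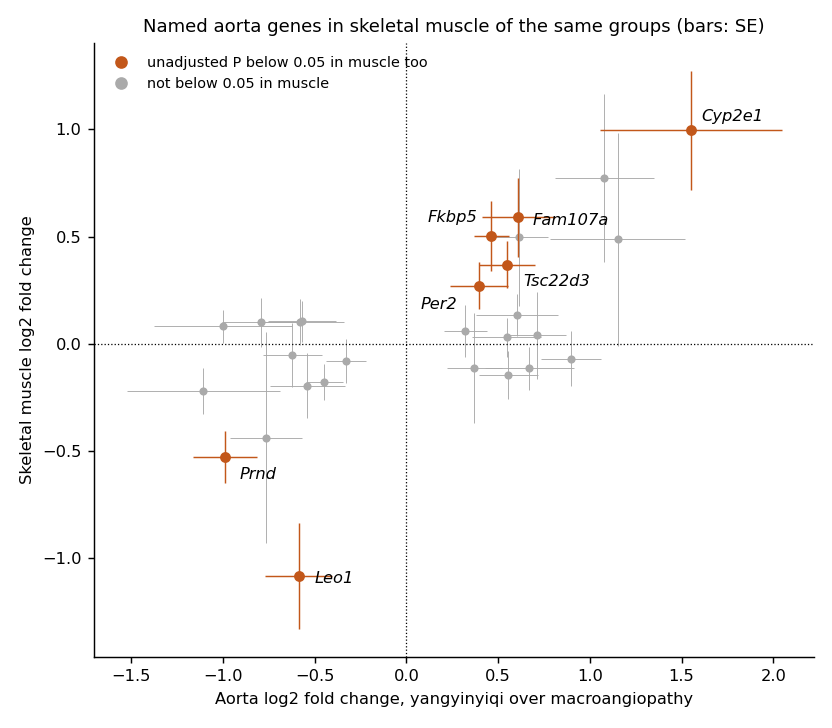
Log2 fold change of yangyinyiqi over macroangiopathy in aorta (x axis) and in skeletal muscle (y axis) for the 28 named genes that were called in aorta and tested in muscle, with bars of 1 SE. Orange points with names mark the 7 genes also called in muscle; all 7 have the same sign in both tissues.

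The other aorta groups show where these levels lie. The other treated groups share the macroangiopathy arrays as their control, so their values are given side by side and not counted as separate support. At the unadjusted threshold 1.62% of genes were called with the whole SHENQI compound, 2.07% with huoxue and 7.16% with rosiglitazone. Against macroangiopathy, Tsc22d3 differed by 0.0027 with the whole SHENQI compound, 0.60 with its huoxue part and 0.72 with rosiglitazone, beside 0.55 with yangyinyiqi. Sgk1 differed by 0.22, 0.48 and 0.57 in the same order, and Fkbp5 by -0.06, 0.25 and 0.31. For Per1 the values were 0.15, 0.08 and -0.03, with 0.52 for yangyinyiqi. Prnd differed by -0.24 with SHENQI, -0.64 with huoxue and -0.93 with rosiglitazone, and Cyp2e1 by 0.72, 1.06 and 1.31.

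Levels in mice without the model were read on 3 arrays per group as well. Prnd had a mean of 6.62 in healthy C57 mice and 8.48 in KK/Ay mice with diabetes alone, so the yangyinyiqi mean of 7.02 lay between them and the macroangiopathy mean of 8.01 nearer to diabetes. Cyp2e1 had a mean of 11.35 in healthy mice and 8.67 in diabetic mice, beside 7.88 with macroangiopathy and 9.43 with yangyinyiqi. Mmp3 had a mean of 10.85 in healthy mice and 7.29 in diabetic mice, beside 7.12 and 8.02. Igfbp2 had a mean of 7.00 in healthy mice and 6.64 in diabetic mice, beside 8.08 with macroangiopathy and 7.32 with yangyinyiqi. Its healthy arrays ran from 5.88 to 8.22, a range that holds all yangyinyiqi arrays and macroangiopathy 1 and 3. In these 4 genes the yangyinyiqi mean lay nearer to the healthy mean than the macroangiopathy mean did, and in others it lay farther from it. Lgals3bp had a mean of 13.79 in healthy mice, 12.55 with macroangiopathy and 11.93 with yangyinyiqi. Sfrp4 had means of 9.17, 9.96 and 10.67 and Cxcl14 of 8.56, 9.78 and 10.34 in the same order. The means of Oas2 were 7.15, 6.32 and 5.87, and those of Per2 were 7.05, 7.82 and 8.22. Fkbp5 varied widely among the healthy mice, from 6.58 to 8.41, a range that holds all arrays of both model groups. Healthy mice differ from the rest in strain as well as in disease. Their aorta arrays also differed in smooth muscle content: Myh11 read 9.15, 13.94 and 12.64. Its mean was 11.91 there, 15.08 with macroangiopathy and 15.15 with yangyinyiqi. Clock genes differed too, with means in the same order of 8.79, 6.93 and 6.78 for Arntl and 11.78, 14.18 and 14.71 for Dbp. The part of tissue content and clock phase in the distances to the healthy means was not tested.

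**Figure D5:**
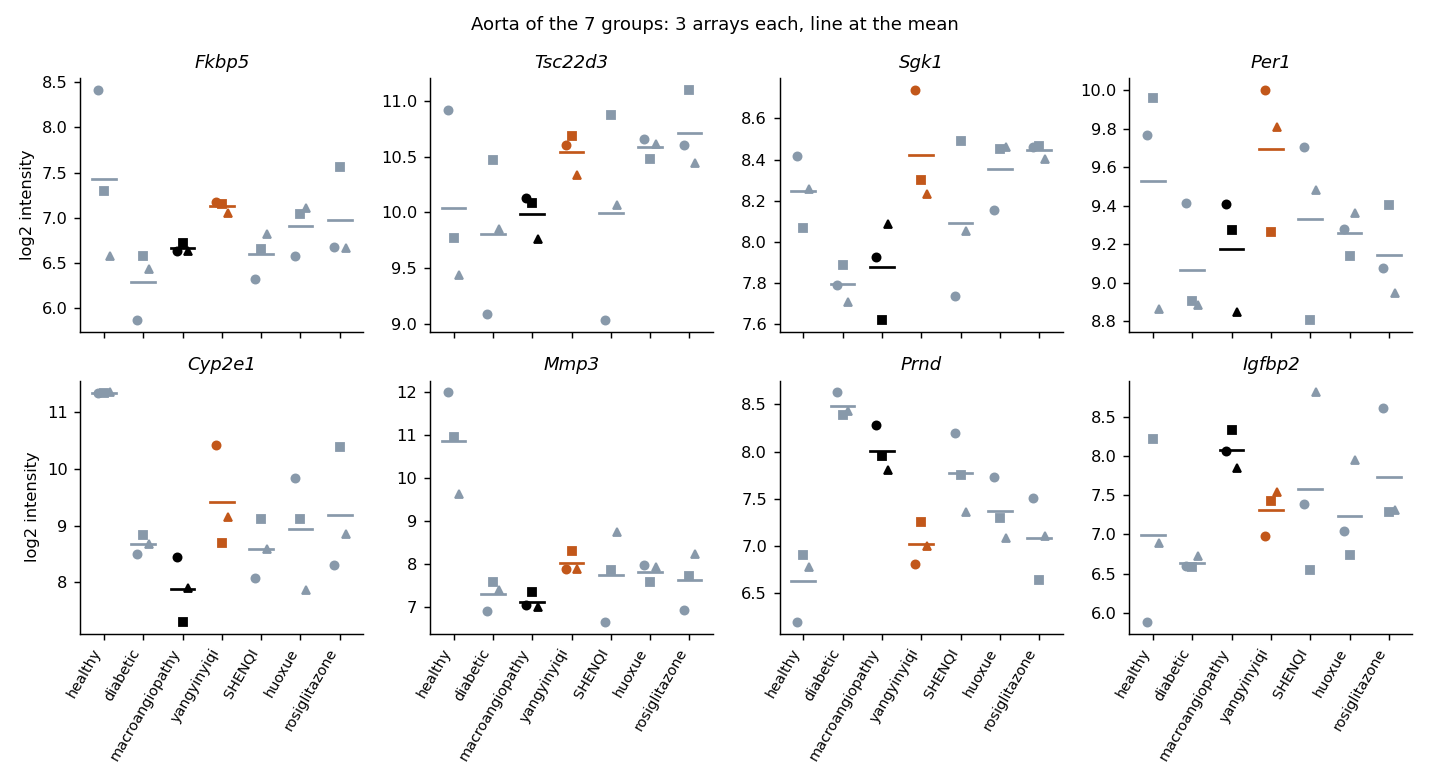
Log2 intensity (y axis, a separate scale for each gene) of 8 genes on the 3 aorta arrays of each of the 7 groups (x axis), with 1 symbol shape per replicate number and a line at the group mean. Macroangiopathy is black and yangyinyiqi orange; Fkbp5, Tsc22d3, Sgk1, Cyp2e1 and Mmp3 lie higher and Prnd and Igfbp2 lower in orange than in black with no overlap, while Per1 overlaps.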

How the data were processed

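Total RNA was labelled with Cy3 and run by the authors on 1-colour Agilent arrays of the mouse. The deposited scanner files, read per their headers with Agilent Feature Extraction 10.7.3.1, list the intensity of 45018 spots per array. Median spot and local background intensities were corrected with normexp (offset 0), quantile normalized over 42 arrays and logged (log2) in limma 3.58.1 (R 4.3.3). Irregular spots were set to missing, and probes of a symbol averaged. Tests were limited to genes with a probe flagged above background on every array of either group, which kept 15817 of 21538 genes. The difference was fitted with lmFit and eBayes on 6 arrays, with no covariate. A P value sets the difference against the spread of the arrays within the groups and takes no account of slide. The authors' deposited table of log2 values, which is quantile normalized, served as an alternative. The fit was tested on simulated data. Probe positions are mm9, per the file headers; no sequence was read by them.

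Genes were named by a rule: the 12 largest differences in each direction among genes called at an unadjusted P value below 0.05, without overlap and well above background on all 6 arrays; called list members; all clock genes; and tissue markers. Of the largest differences, 2 are not reported here. The members and the 37 lists were chosen with earlier results of these data known. Symbols came from RefSeq accessions where they matched (27479 probes) and from the array design otherwise. Promoters were searched in Python 3.11.15 with pandas 2.3.3, and figures drawn with matplotlib 3.10.9.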

Additional observations from a re-analysis of the deposited data

How the results depend on the processing

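Of the 34 called genes named, all kept their direction in the 26 alternatives in which they could be fitted. The alternatives reuse the arrays by which the genes were called, and most of these genes were without overlap. Such genes cannot turn when an array is left out, so the kept direction is not separate support. Under the 6 alternatives of background correction and scaling 27 to 33 stayed past the threshold, and 19 to 27 did with 1 array left out. The adjusted count was 0 in all alternatives but 1. With slide as a fixed block over 21 aorta arrays it was 1: Nup35, named after its values were seen, which read 5.49 on yangyinyiqi 1 and 7.20 to 8.38 on the other 20 aorta arrays. The count of 220 genes at an unadjusted P value stayed within 1.5 times in 14 alternatives. It was 354 with the processed signal, 422 without the filter, 363 with the ordinary t statistic, 622 with 12 arrays of both tissues, 473 with slide as a fixed block over 6 arrays, and 47 with slide as a random block and 58 with 7 group means over 21 aorta arrays. Under those last fits 4 of the 34 stayed past the threshold; Fkbp5 and Tsc22d3 did not, with unadjusted P values of 0.20 and 0.21 with 7 means. The count ranged from 90 without macroangiopathy 2 to 581 without macroangiopathy 1, and was 481 without yangyinyiqi 2. Of alternatives added after the data were seen, 437 were called without the arrays highest in lymphocyte markers and 417 with the lymphocyte level as a covariate. The share of calls that were higher was 65.45%, between 64.02% and 69.49% under the other scalings. The balance turned with other choices: it was 38.46% with the replicate block, 41.13% without macroangiopathy 3 and 47.5% without macroangiopathy 1, and 83.93% with slide as a fixed block over 6 arrays. That slide block left 16 of the 34 past the threshold, and the one over 21 arrays left 5. The cause of these differences was not tested. The difference between the tissues had 0 adjusted calls under each alternative run.

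The replicate numbers did not pair the arrays: deviations of same-numbered arrays correlated between -0.47 and 0.02, and 0 of 6 arrays correlated best with their own number. With the replicate block, 182 genes were called, and 27 of the 34 stayed past the threshold. With 3 arrays a group, small differences were not detectable against the spread within groups.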
